A study of Mus musculus with 6 samples.

Results

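Cytosolic heat shock genes were examined by RNA-seq in dissected substantia nigra (SN) of MitoPark mice, a genetic model of Parkinson's disease. The 10 genes were chosen by symbol as members of the cytosolic heat shock response, namely Hsf1, Hspa1a, Hspa1b, Hspa8, Hsph1, Dnajb1, Dnaja1, Bag3, Hsp90aa1 and Hsp90ab1. All 10 are among the 24054 genes of the deposited table, and all 10 passed the filter on low counts that left 14568 genes for testing. One library was made from each of 3 littermate controls and 3 MitoParks, all untreated and 16 to 17 weeks old. By the study's methods, MitoParks carry Cre at the dopamine transporter locus and loxP-flanked Tfam on both alleles (Dat+/Cre, Tfam LoxP/LoxP). By the same methods the controls carry 1 loxP-flanked Tfam allele and no Cre (Tfam+/LoxP, Dat+/+), while the labels give their genotype only as C57BL/6 and describe the MitoParks as transgenic and derived from C57BL/6. Tfam, which encodes mitochondrial transcription factor A, is therefore deleted only in cells that express the dopamine transporter, whereas the RNA came from the whole dissected SN. The labels give the tissue as brain, and the SN is named in the study's methods. The labels do not say whether mice of a group came from separate litters, so p-values measure the spread between these 6 libraries.

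Heat shock proteins are chaperones that bind unfolded proteins and help them to fold, disaggregate or be degraded. HSF1 is the transcription factor that raises their genes after heat, proteasome inhibition or other proteotoxic stress, when it is released from chaperones, forms trimers and binds heat shock elements in their promoters. HSP70 proteins do the folding work in an ATP-driven cycle, J-domain proteins deliver substrates to them, HSP110 and BAG proteins exchange their nucleotide, and HSP90 proteins take over partly folded clients such as kinases and steroid receptors. In brain, Hspa8 and both HSP90 genes are abundant at rest, whereas Hspa1a and Hspa1b are the classic inducible pair.

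The promoters of Hspa1a and Hspa1b, with those of Hsph1 and Dnajb1, are shown because these 4 genes ordered the mice in much the same way. The sequences are from RefSeq on GRCm38.p6, whose table held promoters of 6 of the 10 genes. The deposited counts are by gene symbol and carry no coordinates, so that build is used for these sequences alone. Each line holds the 250 bases before an annotated start, read 5′ to 3′ on the gene's strand. Capitals mark pairs of heat shock element units, searched as GAANNTTC and as TTCNNGAA, where N is any base. Both motifs read the same on either strand, and neighbouring matches may overlap.

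Hspa1a, chr17:34972157-34972406, minus strand: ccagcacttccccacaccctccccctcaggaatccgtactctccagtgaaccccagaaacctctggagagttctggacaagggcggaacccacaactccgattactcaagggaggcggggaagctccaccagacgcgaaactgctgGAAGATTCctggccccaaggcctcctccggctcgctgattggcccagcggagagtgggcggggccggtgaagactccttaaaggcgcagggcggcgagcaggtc

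Hspa1b, chr17:34959239-34959488, minus strand: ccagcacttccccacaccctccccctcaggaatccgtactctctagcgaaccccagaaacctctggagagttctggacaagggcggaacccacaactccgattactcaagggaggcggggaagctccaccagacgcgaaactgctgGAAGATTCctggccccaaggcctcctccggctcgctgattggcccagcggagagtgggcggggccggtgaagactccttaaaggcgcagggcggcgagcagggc

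Hsph1, chr5:149636316-149636565, minus strand: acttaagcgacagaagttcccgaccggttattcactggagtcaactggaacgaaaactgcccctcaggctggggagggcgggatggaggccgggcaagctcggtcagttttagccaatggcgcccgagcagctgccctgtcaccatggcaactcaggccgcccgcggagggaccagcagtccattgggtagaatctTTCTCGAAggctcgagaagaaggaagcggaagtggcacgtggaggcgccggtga

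Dnajb1, chr8:83607925-83608174, plus strand: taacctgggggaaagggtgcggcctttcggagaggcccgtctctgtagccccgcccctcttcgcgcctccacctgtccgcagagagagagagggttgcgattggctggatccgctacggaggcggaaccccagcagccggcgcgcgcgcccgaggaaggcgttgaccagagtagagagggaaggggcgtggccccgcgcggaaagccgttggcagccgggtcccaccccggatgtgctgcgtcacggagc

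The Hspa1a and Hspa1b windows differed at 3 of 250 positions, and the pair in each lay 104 bases before the start. The Hsph1 window shown held its pair 54 bases before the start. The Dnajb1 window shown held none of these letters. Of the 6 genes with a promoter in the table, 4 held a pair in at least 1 window (Hspa1a, Hspa1b, Hsph1 and Dnaja1). Counted by window, 5 of their 10 windows held one, of which the Hspa1a and Hspa1b windows are nearly identical and the 2 Hsph1 windows overlap. Over all 32851 promoter windows of the same length 12.8% did. A run of 3 such units, searched on either strand, occurred in 0 of the 10 windows and in 0.466% of all windows. The match is a description of the letters and was not tested as a binding site.

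The near identity extends into the transcripts. Of the 150-base windows of the longest Hspa1a transcript in GENCODE M21, a length equal to the reads named in the methods, 38.1% occur without a mismatch in Hspa1b, and 2.98% occur in Hspa1l. None of 2818 windows occurs in Hspa8. The authors' RSEM estimate divides reads that fit both Hspa1a and Hspa1b, so their single values are uncertain and their sum is given as well.

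The libraries held between 8140777 and 10528602 expected counts. Levels are CPM, counts scaled to a common library size with edgeR's TMM factors. Tfam was lower in each MitoPark, at 32.7 to 33.2 CPM, than in each control, at 40.3 to 45.5 CPM. Th and Slc6a3, which mark dopamine neurons, were present in all 6 libraries, and the 6 dopamine neuron markers summed to 300 and 315 CPM in controls 1 and 2, 992 CPM in control 3, and 183, 312 and 309 CPM in MitoParks 1 to 3. All 6 of these markers had a log2 fold change below 0, with a median of -0.69. Control 3 was the highest mouse for all 6, and for Th and En1 MitoParks 2 and 3 lay above controls 1 and 2. Of the 6, 1 was called, against 0.577% of all genes tested. This was Slc6a3, which encodes the dopamine transporter (log2 fold change -2.30, unadjusted p = 0.00895 and adjusted p = 0.999 from edgeR). Its groups did not overlap, as was seen for 4.71% of all genes. By the study's methods this locus carries Cre in MitoParks and not in controls, and an effect of the construct on the Slc6a3 level was not tested. Slc6a3 was at 72.6, 65.3 and 383 CPM in controls 1 to 3 and 13.3, 51.1 and 40.9 CPM in MitoParks 1 to 3. All 5 oligodendrocyte markers were tested and 0 were called, against the same 0.577% of all genes. They summed to 6335, 9025 and 16995 CPM in controls 1 to 3 and to 8752, 11458 and 14467 CPM in MitoParks 1 to 3. MitoPark 3 stood apart in RNAs named after their values were seen. It held 9031 CPM of the ribosomal RNA precursor Rn45s (1276 to 4542 in the other mice), 4449 CPM of the nuclear RNA Malat1 (845 to 2046) and 9443 CPM of Meg3 (5151 to 6945).

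None of the 10 heat shock genes passed the test between MitoParks and littermate controls. A gene was called where edgeR's quasi-likelihood test gave an unadjusted p below 0.05 and the fold change was above 1.5, the cutoffs of the study's methods. The test called 0 of the 10 genes higher and 0 lower, against 0.577% of all genes tested, and 0 of the 10 had an unadjusted p below 0.05, against 1.11% of all genes. DESeq2's Wald test and limma-voom also called 0 of the 10, with 0 at an unadjusted p below 0.05. Every one of the 10 genes had overlapping groups, while the groups did not overlap for 4.71% of all genes. The adjusted p of each was 0.999 (edgeR's quasi-likelihood test, Benjamini-Hochberg over all genes). This value was also the smallest adjusted p among all 14568 genes tested. An unadjusted p below 0.05 in the same test was found for 161 genes, whereas 5% of the genes tested would be 728. Low p-values were thus scarce in the whole comparison, and their absence was not particular to the 10 heat shock genes. The two-sided exact permutation test has 0.1 as its smallest possible p in this design, and for these genes it gave between 0.5 and 1.

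**Figure D1:**
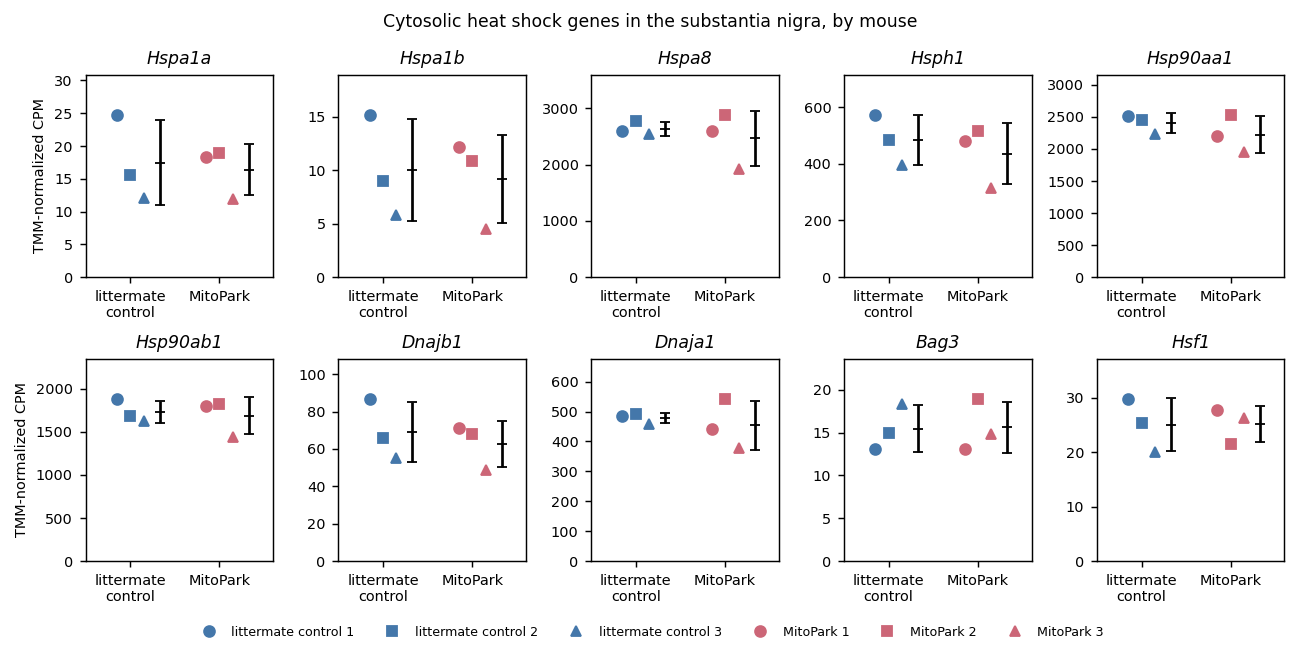
Each panel plots 1 heat shock gene, with TMM-normalized CPM on a linear axis from 0, 1 point per mouse (the symbol gives the replicate number) and black bars for the mean ± SD of 3 mice. The groups overlap in all 10 panels, and MitoPark 3 (red triangle) is the lowest of all mice in 8 of them.

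Hsf1, the regulator of the response, had 29.7, 25.4 and 20.04 CPM in the 3 controls, in the order of their numbers, against 27.7, 21.5 and 26.3 CPM in the 3 MitoParks. The MitoParks lay inside the range of the controls. The means were 25.04 ± 4.86 CPM in controls and 25.2 ± 3.22 CPM in MitoParks (SD, n = 3 each), a ratio of 1.005 with a 95% interval from 0.773 to 1.31 (edgeR's quasi-likelihood model).

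Hspa1a, an inducible HSP70 gene that is low in unstressed tissue, was at 24.7, 15.6 and 12.1 CPM in the controls and 18.3, 18.9 and 11.9 CPM in MitoParks. Its copy Hspa1b was at 15.1, 9.02 and 5.77 CPM in the controls and 12.2, 10.8 and 4.54 CPM in MitoParks. In both genes control 1 was the highest mouse and MitoPark 3 the lowest. Counts per mouse ran from 105 to 222 for Hspa1a and from 40 to 136 for Hspa1b.

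With both copies summed before the fit, the controls had 39.8, 24.6 and 17.9 CPM and the MitoParks 30.5, 29.8 and 16.3 CPM. The spread inside each group was larger than the difference between the groups. The sum was 27.4 ± 11.2 CPM in controls and 25.5 ± 7.99 CPM in MitoParks (SD, n = 3 each), and its log2 fold change was -0.098, with 0.31 as standard error (unadjusted p = 0.756 and adjusted p = 0.999 from edgeR's quasi-likelihood model). The 95% interval of the ratio ran from 0.580 to 1.505, so changes of the inducible pair within that range were not excluded by these mice. Hspa1a took between 60.1% and 72.6% of the pair's CPM, the largest share in MitoPark 3.

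Hspa8, the constitutive HSP70 gene that works in folding and in uncoating of clathrin vesicles, was far more abundant. It was at 2594, 2771 and 2541 CPM in the controls and 2600, 2882 and 1919 CPM in MitoParks. MitoParks 1 and 2 lay above the lowest control, and MitoPark 3 lay below all controls. The means were 2635 ± 120 CPM and 2467 ± 495 CPM (SD, n = 3 each), a ratio of 0.936 with a 95% interval from 0.726 to 1.21.

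Hsph1, the HSP110 gene whose product exchanges nucleotide on HSP70 and takes part in disaggregation, had the largest difference of the 10 genes, close to that of Dnajb1. It was at 572, 486 and 395 CPM in the controls and 481, 514 and 313 CPM in MitoParks. Its log2 fold change of -0.15 was smaller than its standard error of 0.20 (unadjusted p = 0.475, edgeR), and control 1, control 2, MitoPark 1 and MitoPark 2 all lay above control 3 and MitoPark 3.

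Of the J-domain genes, Dnajb1, a stress-inducible partner of HSP70, was at 86.6, 66.0 and 55.1 CPM in the controls and 71.2, 67.7 and 48.5 CPM in MitoParks. Its log2 fold change was -0.15 (standard error 0.19). Dnaja1, a more constitutive partner, was at 485, 493 and 460 CPM in the controls and 442, 542 and 378 CPM in MitoParks. The log2 fold change of Dnaja1 was -0.079, with 0.14 as standard error. The Dnaja1 controls lay within a 1.07-fold range and the MitoParks within a 1.43-fold range that surrounded them.

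Bag3, which links HSP70 to selective autophagy of misfolded proteins, was at 13.03, 15.01 and 18.4 CPM in the controls and 13.04, 18.9 and 14.9 CPM in MitoParks. This was the only one of the 10 genes for which control 1 was the lowest mouse. Its mean was 15.5 ± 2.70 CPM in controls and 15.6 ± 3.00 CPM in MitoParks (SD, n = 3 each).

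Hsp90aa1, the more inducible of the cytosolic HSP90 genes, was at 2521, 2455 and 2227 CPM in the controls and 2197, 2529 and 1949 CPM in MitoParks. Hsp90ab1, the constitutive one, was at 1879, 1686 and 1630 CPM in the controls and 1801, 1819 and 1436 CPM in MitoParks. The log2 fold changes were -0.11 (standard error 0.14) and -0.039 (standard error 0.14). These were the steadiest of the 10 genes, with the highest mouse 1.30-fold and 1.31-fold above the lowest.

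**Figure D2:**
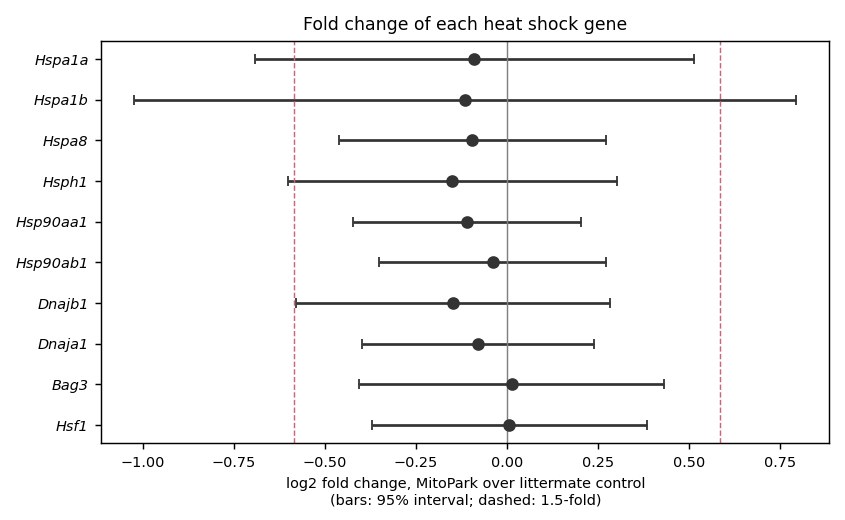
The log2 fold change of MitoParks over littermate controls is plotted for each of the 10 genes, with bars for the 95% interval of edgeR's quasi-likelihood model and dashed lines at a 1.5-fold change in either direction. All 10 intervals include 0, and those of Hspa1a and Hspa1b are the widest.

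The intervals give the range of changes that these libraries did not exclude. For 9 of the 10 genes the upper bound of the ratio was below 1.5, the exception being Hspa1b at 1.74. For 7 of the 10 the lower bound was above 0.667, which is a 1.5-fold fall, and the exceptions were Hspa1a (0.619), Hspa1b (0.492) and Hsph1 (0.659). In bulk SN, fewer cells of a type and less RNA per cell cannot be told apart, and levels in dopamine neurons alone were not measured.

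Levels of different genes were compared per length, as CPM per kb of the longest GENCODE M21 transcript. Which transcript of a gene was expressed was not measured, so the order of genes at close levels depends on this choice. Hspa8 was highest, at 834 ± 38.0 CPM per kb in controls, followed by Hsp90aa1 at 732 ± 47.0 and Hsp90ab1 at 687 ± 51.9 (SD, n = 3 each). The SDs of the HSP90 genes overlapped. Hsph1 (102 ± 18.6) and Dnaja1 (85.2 ± 3.04) came next with overlapping SDs, and Dnajb1 was at 23.1 ± 5.34. Hsf1 (7.99 ± 1.55), Bag3 (6.04 ± 1.06) and Hspa1a (5.89 ± 2.19) had overlapping SDs, and Hspa1b, at 3.56 ± 1.70 CPM per kb, overlapped Hspa1a and Bag3. The same order of means held in MitoParks, from 781 ± 157 CPM per kb for Hspa8 to 3.28 ± 1.46 for Hspa1b. All genes were measured in the same mice, so overlapping SDs do not show that genes were at equal levels. Differences between genes were not tested.

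For all 10 genes, the highest over the lowest mouse inside each group exceeded the ratio of the group means. Single mice spread more than means of 3 mice, so this is a description only. Hspa1b differed 2.63-fold between the highest and the lowest control and 2.69-fold among MitoParks, while the group means differed 1.09-fold. For Hspa1a these values were 2.04-fold, 1.59-fold and 1.07-fold. Over all 6 mice, the ratio of the highest to the lowest level ran from 1.30 for Hsp90aa1 to 3.34 for Hspa1b, with a median of 1.49 over the 10 genes. It was 1.41 over all genes tested and 1.33 over those with a mean of 10 CPM or more.

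The order of the mice recurred across the genes. Control 1 was highest, control 3 the fifth and MitoPark 3 lowest for 5 genes, namely Hspa1a, Hspa1b, Hsph1, Hsp90ab1 and Dnajb1. MitoPark 2 was highest and MitoPark 3 lowest for 3 genes, namely Hspa8, Hsp90aa1 and Dnaja1. Bag3 and Hsf1 followed neither order. Control 3 was the lowest control for 9 of the 10 genes, all but Bag3. The median log2 deviation of the 10 genes from their 6-mouse means was 0.20 in control 1, 0.029 in control 2 and -0.13 in control 3, and 0.087, 0.19 and -0.35 in MitoParks 1, 2 and 3.

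Some other measures moved with this order. Control 3 and MitoPark 3, the mice with the lowest heat shock levels of their groups, had the highest summed oligodendrocyte markers of their groups, and control 1 had the lowest of all 6 mice. Among MitoParks 1 and 2, however, MitoPark 2 had both the higher median deviation of the heat shock genes and the higher sum of these markers. The 5 astrocyte markers summed to 1347, 1263 and 1620 CPM in controls and 1438, 1727 and 1869 CPM in MitoParks. This sum was also highest in control 3 and MitoPark 3 within their groups. Its genes differed, however. Slc1a3 was lowest in these mice of each group, at 681, 556 and 437 CPM in controls and 687, 575 and 538 CPM in MitoParks. Gja1 was highest in control 3 among controls but in MitoPark 2 among MitoParks. The sum of the 5 mural cell markers was highest in the same mice, at 98.1, 92.2 and 131 CPM in controls and 80.6, 109 and 139 CPM in MitoParks. Here too the genes differed. Acta2 (29.1 CPM) and Myh11 (35.6 CPM) were high in MitoPark 3, but Rgs5 and Kcnj8 were highest in MitoPark 2 among MitoParks. Among controls, Acta2 was lowest in control 3. The remaining marker sums were mixed. That of the microglia markers was also highest in control 3 and MitoPark 3. The endothelial and dopamine neuron sums were highest in control 3 but, among MitoParks, in MitoPark 2. Among controls, the choroid plexus sum was lowest in control 3, at 20.3 CPM, and the striatal neuron sum was highest in control 2. MitoPark 3 was also the mouse with the high Rn45s, Malat1 and Meg3. The part of tissue composition and of RNA quality in the heat shock levels was not tested.

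**Figure D3:**
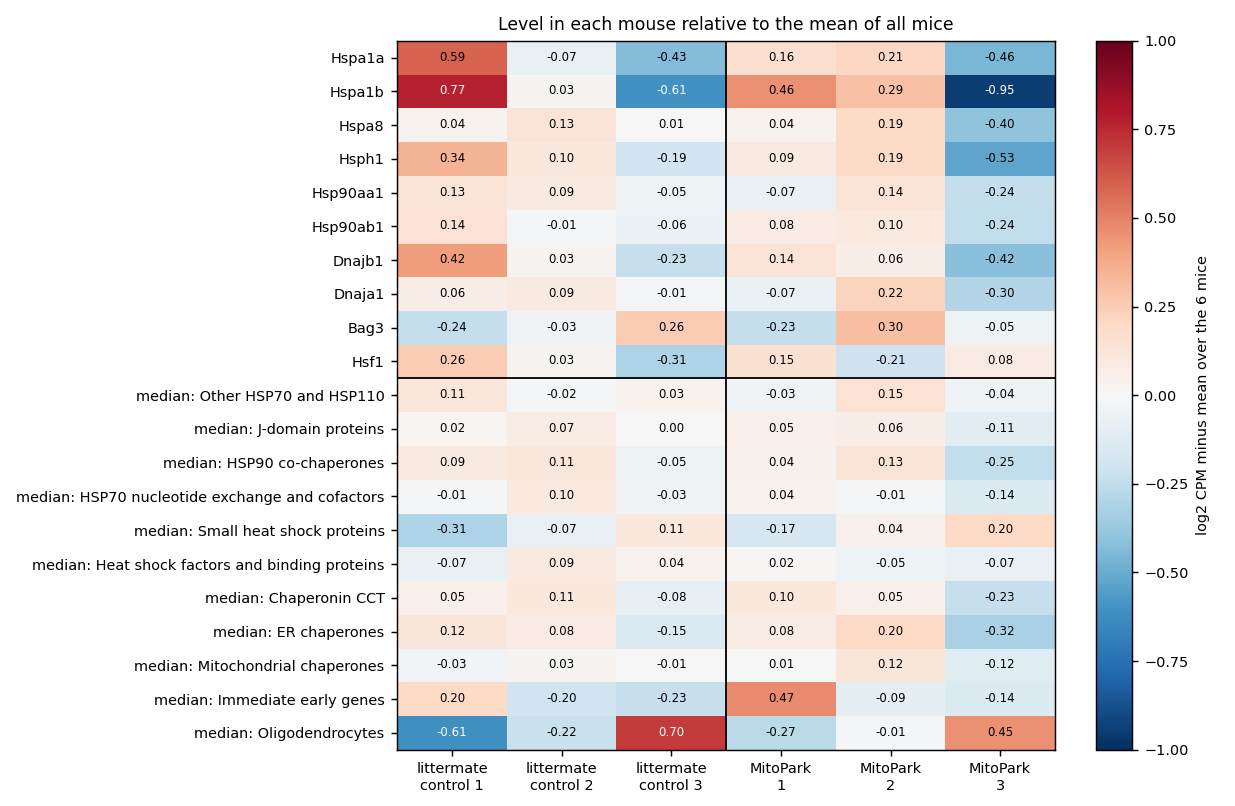
Each cell gives the log2 CPM of a gene, or the median over a list, minus its mean over the 6 mice, for 3 littermate controls (left) and 3 MitoParks (right), with red above and blue below the mean. MitoPark 3 is blue for 9 of the 10 heat shock genes. It is also below the mean for every list except the small heat shock proteins and the oligodendrocyte markers, which are red. Its lowest list medians are those of the ER chaperones, HSP90 co-chaperones and CCT.

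The sign of most of the small differences changed when 1 mouse was left out, MitoPark 3 or control 1 among them. With all mice, 8 of the 10 genes were lower and 2 were higher in MitoParks, with a median log2 fold change of -0.092, against -0.0047 for all genes tested. Without MitoPark 3, 2 genes were lower and 8 higher and the median was 0.044, and Hspa1a (0.094), Hspa1b (0.21), Hspa8 (0.056), Hsph1 (0.040), Hsp90ab1 (0.064), Dnajb1 (0.0047) and Dnaja1 (0.037) all had log2 fold changes above 0. Without control 1, 5 genes were lower and the median was 0.0091, with log2 fold changes of 0.24 for Hspa1a, 0.31 for Hspa1b, 0.028 for Hsp90ab1, 0.048 for Dnajb1 and 0.15 for Hsf1. For Hspa1a, Hspa1b, Dnajb1 and Hsf1 these lay above the values without MitoPark 3. Leaving out other mice moved genes the other way, down to -0.39 for Hspa1b, -0.29 for Dnajb1 and -0.28 for Hsph1. In none of the fits that left out 1 mouse did edgeR give any of the 10 genes an unadjusted p under 0.05 (smallest unadjusted p = 0.109, for Dnaja1 without MitoPark 2).

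None of the other cytosolic chaperones and regulators passed the test. They were 49 genes in 7 lists, of which 47 were tested, and Hspb2 and Hspb3 were too low, at 8 counts or fewer per mouse. The test called 0 of the 47, against 0.577% of all genes, and for 0 of them was the unadjusted p of that edgeR test under 0.05. Of the 47, 33 had a log2 fold change below 0 and 14 above, with a median of -0.035. Groups without overlap were seen for 1 of the 47, against 4.71% of all genes. This was Hspa14, which was at 30.2 ± 2.06 CPM in controls and 33.5 ± 0.767 CPM in MitoParks (SD, n = 3 each, log2 fold change 0.15).

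Among further HSP70 and HSP110 genes, 4 of 7 were below 0 with a median log2 fold change of -0.0045, and Hspa12a, a distant HSP70 relative, had a log2 fold change of -0.13 (unadjusted p = 0.324). Of the 8 other J-domain genes 6 were below 0 (median -0.053), with Dnajb5 at 0.13 (unadjusted p = 0.377) and Dnajc5, the cysteine string protein of synaptic vesicles, at -0.088 (unadjusted p = 0.466). The HSP90 co-chaperones, which load clients and pace the ATPase cycle, had 7 of 9 below 0 (median -0.063), with the myosin chaperone gene Unc45a at 0.11 (unadjusted p = 0.445) and the immunophilin gene Fkbp4 at -0.089 (unadjusted p = 0.472). Each p here is unadjusted, from edgeR's quasi-likelihood test.

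The HSP70 cofactors had 5 of 8 below 0 (median -0.019), with Bag4 at -0.19 (unadjusted p = 0.144) and Bag2 at -0.20 (unadjusted p = 0.323). The 3 heat shock factors and binding proteins were all below 0 (median -0.070), with Hsbp1, which encodes a small protein that binds HSF1, at -0.073 (unadjusted p = 0.486) and Hsf4 at -0.070 (unadjusted p = 0.647). The CCT chaperonin, the ring that folds actin and tubulin, had 7 of 8 subunit genes below 0 (median -0.030), with Cct8 at -0.14 (unadjusted p = 0.253) and Cct6a at -0.064 (unadjusted p = 0.627). These p-values come from the same test.

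Small heat shock proteins hold unfolded proteins without ATP. Of the 4 tested, 1 was below 0 and the median was 0.061. Hspb1 was at 8.13, 3.99 and 4.89 CPM in the controls and 4.63, 4.15 and 3.51 CPM in MitoParks, a log2 fold change of -0.46 (unadjusted p = 0.157), and control 1 alone lay above the other 5 mice. Hspb8, a partner of BAG3, had a log2 fold change of 0.0997 (unadjusted p = 0.518). Cryab, named after its values were seen, was ordered differently from the inducible genes, with 79.5 CPM in control 1 as the lowest and 153 CPM in control 3 as the highest value.

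**Figure D4:**
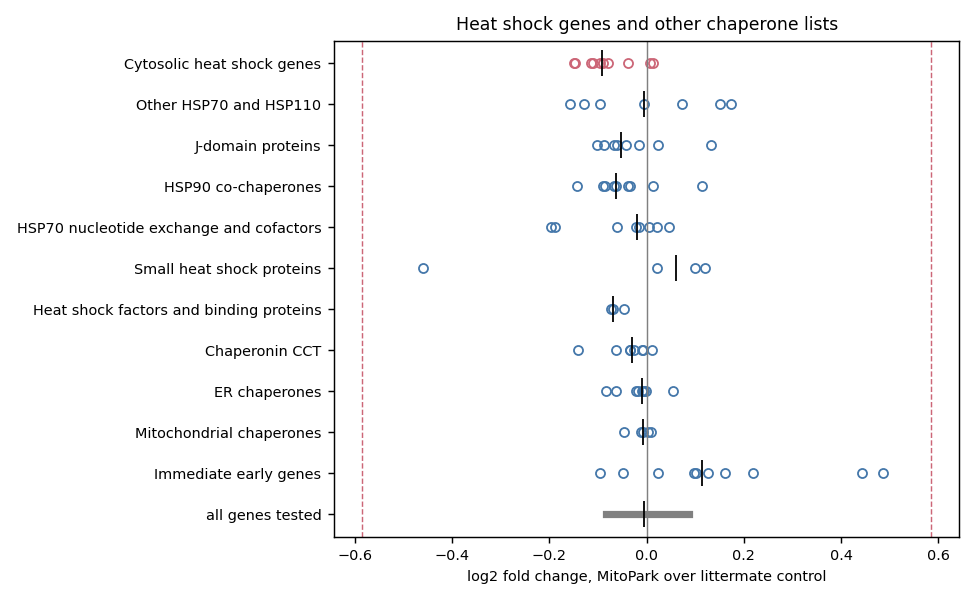
Log2 fold changes of MitoParks over littermate controls are plotted as 1 circle per tested gene for the 10 heat shock genes (red) and for the other lists (blue), with the median as a black bar and dashed lines at a 1.5-fold change. The grey bar spans the quartiles of all genes tested, from -0.085 to 0.088, and no circle lies beyond the dashed lines.

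Of the chaperones of other compartments 0 were called, against 0.577% of all genes tested, so few calls could arise in lists this short. For the 9 ER chaperone genes the median log2 fold change was -0.0099, with Canx at -0.085 (unadjusted p = 0.537) and Dnajb9 at -0.063 (unadjusted p = 0.640), and for the 5 mitochondrial chaperone genes it was -0.0085, with Hspd1 at -0.048 (unadjusted p = 0.720) and Hspa9 at -0.011 (unadjusted p = 0.922, all from edgeR). The ER chaperones summed to 3028, 3015 and 2575 CPM in the controls and 2929, 3263 and 2247 CPM in MitoParks, so that control 3 and MitoPark 3 were again the lowest of their groups.

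Immediate early genes, which rise within minutes of neuronal activity or handling of tissue, were examined beside the heat shock genes. Of the 11 genes 10 were tested and 0 were called, against 0.577% of all genes tested, with a median log2 fold change of 0.11. Ier2 (0.49, unadjusted p = 0.165) and Npas4 (0.44, unadjusted p = 0.260) had the smallest p-values in edgeR's quasi-likelihood test. MitoPark 1 had the largest sum of the list, at 197 CPM, control 1 followed at 168, and the other 4 mice lay between 126 and 143 CPM.

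The genes whose profile over the 6 mice was nearest to that of Hspa1a plus Hspa1b, by the root-mean-square difference of centred log2(CPM + 0.1), among 12483 genes ranked, were Gpr165 (0.073), Parm1 (0.12), Trpc5 (0.12), Kcnb2 (0.13) and Ago2 (0.13). Gpr165 was at 91.0, 61.2 and 39.7 CPM in the controls and 78.3, 69.0 and 39.7 CPM in MitoParks. Like the inducible pair, it was highest in control 1 and lowest in MitoPark 3 and control 3. Trpc5 encodes a cation channel and Kcnb2 a potassium channel. None of the 5 was called between the groups. They were picked for closeness to the pair's profile, so a similar order of mice and the absence of a call follow from the choice.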

How the data were processed

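Polyadenylated RNA of 3 MitoPark and 3 littermate control mice was sequenced in single-end reads. The authors mapped reads to UCSC transcripts with Bowtie2 (2.1.0) and deposited RSEM (1.2.15) expected counts per gene, not normalized. The methods also describe a HISAT2 alignment with RefSeq annotation, and the table was read as RSEM output because the labels name that tool and the values are not whole. The labels name a human genome build for these mouse samples, and no coordinates of the counts were used. Groups came from the sample titles. The table's columns are named Control and Treat, and the Treat columns were taken as the mice titled PD by their number and because they are the only others, so 0 columns lacked a sample. From there, expected counts were rounded, a gene was kept where either group's mean CPM exceeded 1, and edgeR 4.0.16 (R 4.3.3) fitted TMM-normalized counts with group as the only term in a quasi-likelihood model. Adjusted p-values are Benjamini-Hochberg over all 14568 genes. Intervals are 95% intervals of that model. Permutation tests were exact, two-sided and on log2(CPM + 0.1). The procedure was tested on simulated data. Alternatives used DESeq2 1.42.0, limma 3.58.1, other normalizations and filters, unrounded counts, summed Hspa1a and Hspa1b, a block for the replicate number, and fits leaving out 1 mouse. Totals per mouse lay between 8140777 and 10528602, and no molecular identifiers are named in the methods. No 2 mice of a group agreed within sampling noise (lowest chi-square over its degrees of freedom 10.2). The genes and lists were chosen with earlier results of these data known. All 10 members are named, with, from each other chaperone list, the 2 genes with the smallest p and any called gene, and the 5 genes nearest in profile to the Hspa1 pair among those with 50 counts or more in a mouse. Marker lists for microglia, astrocytes, endothelial cells, mural cells, choroid plexus and striatal neurons had 0 genes called, against 0.577% of all genes tested. Drd1 of the last list was not analysed here.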

Additional observations from a re-analysis of the deposited data

How the results depend on the processing

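The number of heat shock genes called stayed at 0 higher and 0 lower under all alternatives run. The median log2 fold change of the 10 genes ran from -0.20 to 0.044 with 1 mouse left out, and the number of these genes below 0 from 2 to 9. The median of the further HSP70 and HSP110 genes ran from -0.13 to 0.097 in the same fits. Over the whole table, 55 genes were called higher and 29 lower, 107 and 69 without a filter on low counts, and 26 to 152 higher and 27 to 77 lower with 1 mouse left out. Without the filter 1 immediate early gene was called, Egr2, with 3, 2 and 0 counts in controls and 6, 6 and 5 in MitoParks.

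Mice of both groups carry numbers 1 to 3. The deviations from the group mean correlated, for each shared number, at 0.31, -0.074 and 0.24, and 4 of 6 mice correlated best with their own number, a hint of pairing from the data. Pairing was taken as given only where all 3 correlations exceeded 0.1 or the labels stated it, so no block was used in the results above. With the replicate number as a block, 83 genes were called higher and 43 lower, 1 gene had an adjusted p below 0.05, the median of the 10 heat shock genes was -0.10, and 0 of them were called (smallest unadjusted p = 0.205, Hsph1, edgeR's quasi-likelihood test).

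With total counts in place of TMM, Hspa9 moved to 0.0028. With 1 mouse left out, log2 fold changes ran from -0.30 to 0.24 for Hspa1a, -0.39 to 0.31 for Hspa1b, -0.22 to 0.056 for Hspa8, -0.28 to 0.040 for Hsph1, -0.091 to 0.064 for Hsp90ab1, -0.29 to 0.048 for Dnajb1, -0.22 to 0.037 for Dnaja1, -0.14 to 0.16 for Bag3 and -0.13 to 0.15 for Hsf1. They ran from -0.16 to 0.0039 for Fkbp4, -0.025 to 0.24 for Hspb8, -0.17 to 0.058 for Hsf4, -0.14 to 0.051 for Cct6a, -0.18 to 0.040 for Dnajb9, -0.15 to 0.068 for Hspd1, -0.067 to 0.036 for Hspa9, -0.29 to 0.31 for Gpr165, -0.14 to 0.35 for Parm1, -0.41 to 0.27 for Trpc5, -0.23 to 0.20 for Kcnb2 and -0.35 to 0.098 for Ago2. The cause was not tested. With 3 mice per group, changes within the intervals given were not excluded.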
